A study of Mus musculus with 15 samples.

Results

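Dysplastic lung tissue of transgenic mice was compared with lung tissue of their non-transgenic littermates. The members are the 5 arrays of dysplasia and the 5 arrays of non-transgenic lung, chosen by their sample titles, which is 10 of the 15 arrays of the series. The other 5 arrays hold unaltered lung tissue of transgenic mice and are used to show where a change against non-transgenic lung is already present without dysplasia. In these mice the transgene is driven by the promoter of surfactant protein C, which is active in alveolar type 2 cells, and the line was kept for at least 5 generations in the C57BL/6 background. Dysplastic foci and unaltered tissue were taken by laser microdissection from the same transgenic mice at 5 to 7 months of age. The non-transgenic littermates carry no transgene and were older, at 7 to 10 months. Each sample was hybridised to an Affymetrix mouse genome array of its own.

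The Erk pathway carries growth signals from receptors such as the EGF receptor to the nucleus. Its output includes genes of EGF receptor ligands, transcription factors of the immediate early and Ets families, and inhibitors that feed back on the pathway. Normal alveolar tissue is a thin sheet of type 1 cells, surfactant-producing type 2 cells and a dense capillary bed, whereas a dysplastic focus is a cluster of atypical epithelial cells. Each value is therefore that of a mixture, in which fewer cells of a type and less RNA per cell cannot be told apart.

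The signal of a probe set, a group of short probes for 1 transcript, is the unit of all levels, and each array was scaled by the authors to the same target. Probe sets whose signal averaged more than 100 over the 15 arrays were tested, 21658 in number, and 19226 of them name 1 gene each and cover 11604 genes. A log2 change is the difference of the group means of log2(signal + 50), a scale on which dim probe sets show less than their true change. Changes were tested with limma, and a probe set with a Benjamini-Hochberg adjusted p under 0.05 is said to have risen or fallen. Between 44.1% and 49.8% of the probe sets had a signal above 100 on the dysplasia arrays and between 46.6% and 49.4% on the non-transgenic arrays, and 5 arrays a group set the precision of all values. The actin 5' to 3' signal ratio, which falls with RNA breakdown, had a median of 57.1% in dysplasia (25.1% to 75.2%) and 31.0% in non-transgenic lung (14.1% to 72.8%), and its part in the results was not tested beyond a fit that holds it as a covariate.

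One dysplasia array stood apart from the other 4. Dysplasia 4 had the highest of the 5 dysplasia signals in 1077 of the 1611 probe sets that fell by at least 1 on the log2 scale, against 50 to 193 for each of the other arrays. It also had the lowest signal in 318 of the 1037 probe sets that rose by at least 1, against 75 to 273 for each of the others. Xist, the transcript of the inactive X chromosome of females, had a signal of 9674 on dysplasia 4 beside 495 for the Y-linked gene Eif2s3y, while dysplasia 1, 2 and 5 were male and dysplasia 3 was female by both. Of the non-transgenic arrays 1 was male and 4 were female. Transgenic 4, the unaltered array of the same number, was male, with 85.0 for Xist and 1567 for Eif2s3y, whereas the other pairs of one number were of the same sex by these genes. Whether dysplasia 4 holds tissue of another animal was not tested. Without it the median log2 change of the 1611 probe sets moved from -1.45 to -1.53 and that of the 1037 from 1.42 to 1.44. Over 60 gene lists described here, no count of risen or fallen genes moved by more than 3 without dysplasia 4.

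Close to equal parts of the transcripts moved up and down. Of the probe sets tested, 4476 (20.7%) were higher in dysplasia than in non-transgenic lung and 5047 (23.3%) were lower. Counted by the brightest probe set of each gene, 2869 genes (24.7%) had risen and 3014 genes (26%) had fallen, with a median log2 change of -0.01 over all genes. The counts of a gene list below are to be read against these shares, and they cover only members with a tested probe set. The 5 dysplasia and 5 non-transgenic arrays did not overlap at 33.3% of the probe sets. Because the limit on the signal averages all groups, a gene that is dim in normal lung can enter the test through high dysplasia arrays alone, as 200 of the probe sets that rose by at least 1 had a non-transgenic mean under 100. Lists of genes that are dim in normal lung therefore lean towards rises, and the shares of all genes are no like measure for them.

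Unaltered tissue of transgenic mice lay much closer to non-transgenic lung than to dysplasia. Among all genes, 185 (1.59%) were higher and 14 (0.121%) were lower in unaltered transgenic tissue than in non-transgenic lung. For the 1037 probe sets (758 genes) that rose by at least 1, the part of the log2 change already present in unaltered transgenic tissue had a median of 21.3%, with quartiles at 12.1% and 31.2%. For the 1611 probe sets (1046 genes) that fell by at least 1, the median part was 15.8%, with quartiles at 9.67% and 23.1%. Only 146 of the 1037 and 11 of the 1611 were called in the same direction between unaltered transgenic and non-transgenic tissue. A part of over 75% was seen in 13 of the risen and 2 of the fallen probe sets. Unaltered tissue deviated in the opposite direction in 69 and 85 of them. These shares are descriptions, as both differences use the same non-transgenic arrays, and the closeness described next shares the dysplasia arrays with the comparison itself.

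**Figure D1:**
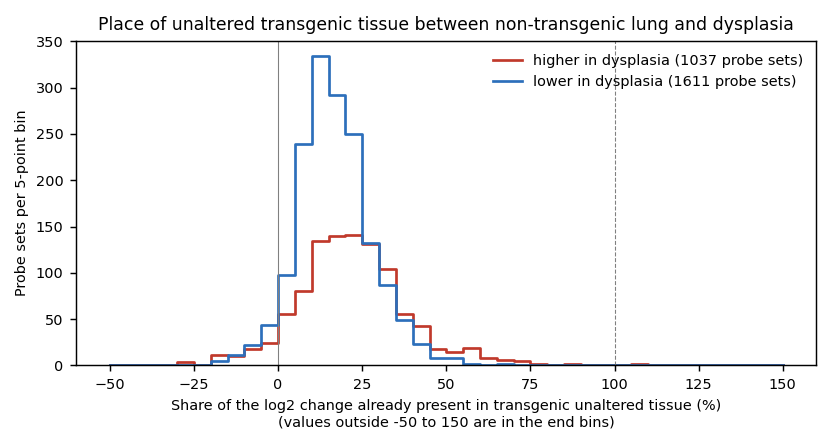
Number of probe sets (y axis, per bin of 5 percentage points) by the share of their log2 change between dysplasia and non-transgenic lung that unaltered transgenic tissue already shows (x axis, percent), for the 1037 probe sets that rose by at least 1 and the 1611 that fell by at least 1. Both curves lie mostly between 0 and 50%, with medians of 21.3% and 15.8%.

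Only a small set of transcripts differed from non-transgenic lung by at least 1 on the log2 scale and at the same time little from unaltered transgenic tissue. Little was defined by the 95% interval of dysplasia minus transgenic tissue lying within a 1.5-fold difference either way. Of the higher probe sets 10 met this rule, those of Lrg1, 9530077C05Rik, Scd1, Hkdc1, Ch25h, Clmn, Cpeb3, Cldn1, Fcgr2b and Clec4n, and of the lower ones 1, that of Pisd-ps3. The values chose these genes, so that their closeness is no finding on its own. Clmn and Cpeb3 lie just inside the limit of 0.58 on the log2 scale, with interval ends at 0.57 and 0.58, and Sema4a and Tmprss4 just outside, at 0.61 and 0.67.

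Lrg1, a leucine-rich glycoprotein of the acute phase, was the brightest gene of this set. Its signals were 11619.9, 8129.9, 10476, 7374 and 9115 in dysplasia 1 to 5 and 2639.9, 2308, 2655, 2768 and 2268 in non-transgenic 1 to 5. In transgenic unaltered tissue they were 8793, 10104, 8367, 7724 and 5849. All 10 arrays of transgenic mice were thus above all non-transgenic arrays, while dysplasia and unaltered tissue overlapped. The log2 change against non-transgenic lung was 1.85 (standard error 0.13, adjusted p = 1.29e-06), and dysplasia minus transgenic tissue was 0.20 (95% interval -0.17 to 0.56).

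Lipid enzymes were among the close genes. Scd1, the desaturase that makes oleate, had signals of 3501, 5198, 5281, 4002 and 4999 in dysplasia and 1698, 2169, 1904, 1941 and 2295 in non-transgenic lung. Transgenic tissue had 2935, 7316, 3871, 4963 and 3999.7, again above every non-transgenic array and on both sides of the dysplasia arrays. This rise of 1.17 (adjusted p = 3.76e-05) is that of the dimmer of 2 probe sets. The brighter probe set of Scd1 had means of 24218, 25319.6 and 23231 in dysplasia, transgenic and non-transgenic tissue and was not called (log2 change 0.06). Ch25h, which hydroxylates cholesterol at carbon 25, had 1012, 1055, 1301, 1395 and 1360.3 in dysplasia, 1062, 1557, 1955, 1208 and 977 in transgenic and 548, 363, 498, 587 and 729 in non-transgenic tissue. Here transgenic 2 and 3 had the highest signals, and both groups of transgenic mice lay above the controls (log2 change 1.12, adjusted p = 2.16e-04).

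Among epithelial genes, Cldn1, a claudin that seals tight junctions, ran from 338 to 396 in dysplasia, 256 to 458 in transgenic and 109.9 to 178 in non-transgenic tissue (log2 change 1.05, adjusted p = 1.39e-05). Hkdc1, a hexokinase-like protein of epithelia, ran from 463 to 592, 327 to 459 and 133 to 284 in the same order. It was the one gene of the set with every dysplasia array above every transgenic array, by 0.31 on the log2 scale (95% interval 0.06 to 0.55). Cpeb3, a protein that binds RNA and holds back translation, rose by 1.06, and Clmn, an actin-binding protein, rose by 1.10. Dysplasia minus transgenic tissue was 0.30 (95% interval 0.02 to 0.58) for Cpeb3 and 0.33 (0.09 to 0.57) for Clmn, so both intervals also lay above 0. The uncharacterised gene 9530077C05Rik had the weakest signals of the 10, 6.82 to 58.7 in non-transgenic lung, so that its ratio of 4.77 rests on a base near background.

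The last 2 of the higher genes encode receptors of immune cells. Fcgr2b, the inhibitory receptor for IgG, had 669, 738, 684, 688 and 521 in dysplasia, 580.1, 984, 822, 785 and 444 in transgenic and 210.0, 299, 309.7, 412 and 278 in non-transgenic tissue. No array of transgenic mice overlapped the controls. Clec4n, the pattern receptor dectin-2 of macrophages and dendritic cells, rose by 1.01 (adjusted p = 0.00329), and it was the only one of the 10 that did not pass the test between transgenic and non-transgenic tissue (adjusted p = 0.178). Of 16 macrophage markers, 6 rose and 2 fell in dysplasia, and 6 were higher in unaltered transgenic tissue than in non-transgenic lung. Summed over these markers the signal was 72036 to 87214 in dysplasia, 81453 to 104189.9 in transgenic and 60436 to 84367 in non-transgenic tissue, and the part of macrophage content in the receptor genes was not tested. The single lower gene, Pisd-ps3, is a pseudogene of a phosphatidylserine enzyme with close relatives that could share its probes. It had 42.2 to 150.2 in dysplasia and 432, 421, 287, 280.5 and 44.6 in non-transgenic 1 to 5, so that non-transgenic 5 lay among the dysplasia arrays. Pisd-ps3 was not called between unaltered transgenic and non-transgenic tissue.

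**Figure D2:**
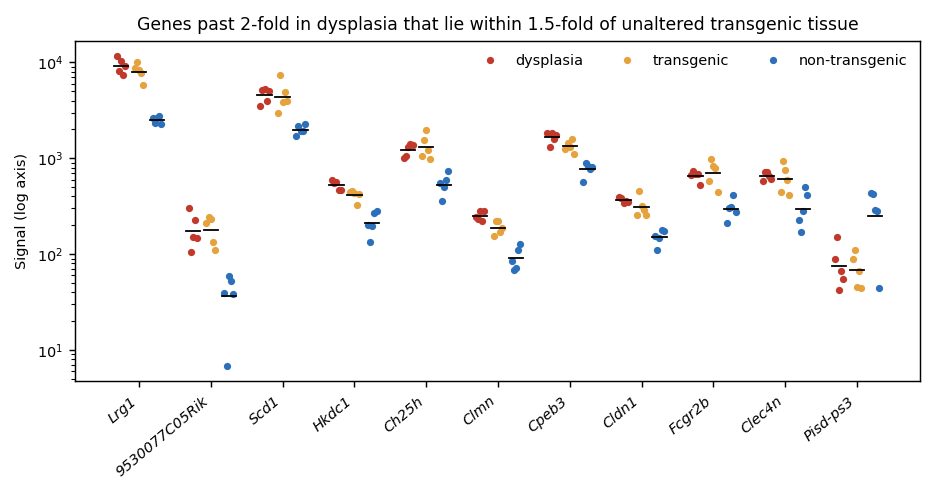
Signal (y axis, log scale) of the 10 higher and 1 lower genes whose dysplasia level lies within 1.5-fold of unaltered transgenic tissue, with 1 dot per array and 5 arrays a group; black bars are means taken on the scale of log2(signal + 50). In the 10 higher genes every dysplasia array lies above every non-transgenic array, and in Pisd-ps3 non-transgenic 5 sits among the dysplasia arrays.

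The deviations of dysplasia and unaltered transgenic arrays of the same number from their group means correlated in all 5 pairs, most weakly in pair 4, whose arrays differ by sex genes. Dysplasia and non-transgenic arrays of one number, from different mice, also correlated on average (mean 0.405, against 0.612 with unaltered tissue), so this does not show a shared mouse. The best match had the same number for 10 arrays in the pairs with unaltered tissue and for 5 in those with non-transgenic lung. With the array number as a block the rule gave 12 higher and 2 lower probe sets. The set is small and turns on single arrays, with 3 higher probe sets left without dysplasia 4, 4 each without dysplasia 2, dysplasia 5, transgenic 1, 3 or 4, and 5 without transgenic 2, an array whose labels conflict, as other fields of it name a tumor. The lower count was 0 without dysplasia 3, 4 or 5, transgenic 1, 2 or 4 or non-transgenic 1, 2, 3 or 4, was 2 without dysplasia 2 or transgenic 3 and was 3 without non-transgenic 5. Taking the difference itself instead of its interval, an alternative chosen after the values were seen, the higher side held 53 probe sets (46 genes) and the lower side 16 (12 genes). Of these, 30 of the 53 but only 2 of the 16 were called between unaltered transgenic and non-transgenic tissue. This wider set holds the fibrinogen chain genes Fga and Fgg, which were not called between dysplasia and unaltered transgenic tissue, with log2 differences of -0.33 and -0.26. Fga had 353, 259, 341, 262 and 396 in dysplasia, 271, 1017, 542, 262 and 288 in transgenic and 1.68, 31.8, 26.4, 61.4 and 45.4 in non-transgenic tissue, with transgenic 2 well above all other arrays. The collagen-degrading protease gene Ctsk had means of 1404, 1901 and 688. Further members were the mucin gene Muc1, the endocytic receptor gene Lrp2, the laminin receptor gene Itga7, the protease inhibitor gene Slpi, the pyruvate carboxylase gene Pcx and the cytokine gene Csf2. On the lower side stood Pon1, a paraoxonase of lipoproteins that fell by 1.93, Tfpi, an inhibitor of coagulation that fell by 1.03, and the interferon-induced GTPase genes Gbp6 and Iigp1. The probe set of Iigp1 in this set is a dimmer one, and the brightest of that gene was not called between dysplasia and non-transgenic lung (log2 change -0.61).

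The 20 largest rises named by a single gene ranged from 3.98 to 6.49 on the log2 scale. Their promoters, where RefSeq lists one, were searched on both strands over the 250 bases before the start for 5 motifs, as these genes moved together. The TATA box TATAAA was found in 7 of 18 promoters of the largest rises (38.9%), in 3 of 17 of the largest falls (17.6%) and in 3504 of all 27025 promoters. The first base of the box lay 29 to 40 bases before the start in 6 of the 7, and in Meg3 it lay 25 bases before it, overlapping a second match on the other strand. The last 60 bases before the start of these 7 genes are shown, 5′ to 3′ on the strand of the gene in build GRCm38.p6, with the box in capitals, as they are the promoters that share this feature.
Gkn2 (chr6:87373305-87373364, plus strand): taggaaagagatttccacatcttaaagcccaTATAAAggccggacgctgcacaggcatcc
Cldn2 (chrX:139800748-139800807, plus strand): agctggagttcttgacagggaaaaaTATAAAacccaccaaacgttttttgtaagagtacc
Fetub (chr16:22918322-22918381, plus strand): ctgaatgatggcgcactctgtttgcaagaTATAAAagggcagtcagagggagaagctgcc
Areg (chr5:91139539-91139598, plus strand): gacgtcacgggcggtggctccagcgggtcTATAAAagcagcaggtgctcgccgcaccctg
Meg3 (chr12:109540936-109540995, plus strand): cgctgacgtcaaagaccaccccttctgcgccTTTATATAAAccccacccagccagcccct
Cd177 (chr7:24760312-24760371, minus strand): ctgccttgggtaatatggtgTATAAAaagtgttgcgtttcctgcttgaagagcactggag
A2ml1 (chr6:128581607-128581666, minus strand): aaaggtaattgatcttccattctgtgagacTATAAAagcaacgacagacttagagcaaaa
The CCAAT box CCAAT was found in 22.2% of the promoters of the largest rises against 34.5% of all promoters, and the AP-1 letters TGANTCA in 11.1% against 6.87%. The STAT letters TTCNNNGAA were found in 1 of the 18 (5.56%) against 7.18%, and the Ets letters CCGGAAG in none against 7.05%. A match describes the letters in this window and not a site that is bound.

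Ereg, which encodes the EGF receptor ligand epiregulin, showed the largest change of all. Its signals were 6412, 4830.4, 6521, 4850.0 and 4705 in dysplasia 1 to 5 and 24.0, 2.21, 14.1, 2.44 and 13.8 in non-transgenic 1 to 5. Transgenic unaltered tissue had 331, 625, 513, 313 and 436, between the other groups and overlapping neither. The log2 change was 6.49 (standard error 0.14, adjusted p = 5.88e-10), of which 46.0% was present in unaltered tissue. As the signals of non-transgenic lung lie near background, the ratio of 482 and the share of 46.0% are not firm.

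Of 6 measured genes of the EGF ligand family, 5 rose and 1 fell, with a median log2 change of 1.42. Another 4 genes of the family list had no tested probe set. Areg, amphiregulin, had 3991, 6750.2, 6093, 3594 and 4283 in dysplasia against 127, 185, 153, 103 and 127 in non-transgenic lung, with no overlap (log2 change 4.70, adjusted p = 3.39e-08). Btc, betacellulin, rose by 1.51, Hbegf by 1.32 and Tgfa by 1.05. The only fall was that of Nrg2, a neuregulin that binds other receptors of the family, which fell by 0.87, from 155 to 59.9. Without dysplasia 4 the ligand count was 4 higher and 1 lower.

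The genes that feed back on Erk signalling rose in 8 of 14 and fell in 2 (median 0.75). Dusp5, a phosphatase of nuclear Erk, rose from 165 ± 84.0 to 1082 ± 507 (SD, n = 5; adjusted p = 8.30e-04). Dusp4, Dusp6, Spred1, Spry1, Spry2, Errfi1 and Phlda1 were the other 7, with log2 changes from 0.69 to 1.35. Dusp1 fell by 0.95 and Il17rd, a membrane inhibitor of FGF signalling, by 1.82. None of the 14 was called between transgenic and non-transgenic tissue.

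Immediate early genes, 18 in number, split into 6 rises and 6 falls, beside 24.7% and 26% of all genes. Egr1, an early growth response factor, had 2096 in non-transgenic and 11385 in dysplastic tissue and rose by 2.47 (adjusted p = 2.34e-05), and Fos and Myc rose by 1.56 and 1.39. Jun, Klf2 and Klf4 fell by 1.47, 1.99 and 1.93. Ets factors gave 5 rises and 6 falls among 13. The rises were the epithelial factors Elf3, Elf5 and Ehf and the Erk-responsive Etv4 and Etv5, led by Etv4 with 316, 273, 335, 313 and 326 in dysplasia against 7.36, 6.51, 5.46, 5.42 and 4.93. The falls included Erg (-1.82), Fli1 (-1.39) and Ets1 (-1.35), which are known from endothelial and blood cells.

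Transcription factors of endoderm and gut rose in 6 of 9 and fell in 2. Hnf4a, a nuclear receptor of liver and gut epithelium, had signals of 589.9, 474, 592, 383 and 618 in dysplasia and 69.4, 38.2, 9.21, 10.6 and 14.9 in non-transgenic lung. The groups were wide apart, and transgenic tissue, at 14.3 to 68.5, lay near the controls (log2 change 2.93, adjusted p = 1.29e-06). The forkhead genes Foxp2, Foxa3, Foxa2 and Foxa1 rose by 2.59, 2.37, 1.11 and 0.87, and Gata6 by 0.89. The falls were those of Gata5, by 1.23, and of Sox17, which in adult lung marks endothelium, by 1.85. The other 10 genes of this list had no tested probe set, and members dim in normal lung could enter only where transgenic mice are high.

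Gastric and mucin genes gave 5 rises and 2 falls among 8, and another 14 genes of this list had no tested probe set. Here, too, members dim in normal lung could enter only where transgenic mice are high. Gkn2, a gastrokine of the stomach lining, was at 4540.2 to 7549 in dysplasia, 138 to 248 in transgenic and 16.2 to 26.7 in non-transgenic tissue. Muc4, Muc1, Tspan8 and Muc20 rose by 1.99, 1.51, 1.08 and 0.82. The trefoil factor gene Tff1 fell by 0.54, and Gkn3 was not called, with means of 254 and 303.

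Genes of epithelial cell contacts changed strongly and in both directions. Cldn2, the claudin of cation pores, had 3267, 2685, 2851, 2367 and 2888 in dysplasia and 10.2, 17.2, 53.0, 8.29 and 26.1 in non-transgenic lung, without overlap (log2 change 5.32, adjusted p = 4.35e-09). Cldn4, Cldn3, Cldn7 and Cldn8 rose by 3.28, 2.36, 1.92 and 1.26. Over 18 claudin and tight junction genes 9 rose and 4 fell, and among the falls was Cldn5, the claudin of endothelium, at -2.07. The abundant claudin of normal alveoli, Cldn18, was not called, with 14006 in dysplasia and 11617 in non-transgenic lung. Of 6 measured connexin genes, which form gap junctions, Gjb1, Gjb2, Gjb6 and Gja1 rose by 2.54, 2.14, 2.02 and 0.74, while the vascular connexins Gja4 and Gjc1 fell by 1.51 and 1.74. Another 6 connexin genes had no tested probe set.

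Keratins of simple epithelia and adhesion genes rose in 11 of 16 and fell in 3. Krt18 rose from 2519 ± 191 to 16423 ± 2256 (SD, n = 5; log2 change 2.67, adjusted p = 3.39e-08), beside Krt8 (1.62), Krt19 (1.56), Krt20 (1.47) and Krt7 (1.17). Epcam, an adhesion molecule of epithelia, rose by 2.23, and the basement membrane anchor gene Lad1 by 3.48. Cdh1, E-cadherin, was not called (0.32), and Cdh2, N-cadherin, fell by 1.38.

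Enzymes that build glycan chains rose in 11 of 25 and fell in 5. St8sia6, a sialyltransferase, had 5243, 6593, 6589.7, 4661 and 6204 in dysplasia and 79.9, 93.6, 97.7, 117 and 131 in non-transgenic lung, with the transgenic arrays at 306 to 852 in between (log2 change 5.26, adjusted p = 1.32e-09). These values are of a dimmer probe set, and the brightest of this gene rose by 5.07. B4galt6, a galactosyltransferase of glycolipids, rose by 3.02, Fut2, the secretor fucosyltransferase, by 2.18 and Gcnt1, which branches O-glycans, by 2.17. Glypicans and syndecans, which carry heparan sulfate, went both ways. Gpc6, Sdc1 and Sdc4 rose by 2.96, 1.46 and 0.96, and Gpc3, Gpc4, Sdc2 and Sdc3 fell by 2.02, 0.41, 1.12 and 1.08.

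Among the other large rises were genes of signalling and transport. Rasgrf1, an exchange factor that loads Ras with GTP, had 2233, 1712, 2673, 2008 and 2022 in dysplasia, 256, 247, 239, 175 and 254 in transgenic and 139.9, 40.2, 94.1, 171 and 37.8 in non-transgenic tissue, with no overlap between any groups (log2 change 3.98, adjusted p = 7.73e-07). Stk39, a kinase that activates chloride cotransporters, was at 2787 to 4865 in dysplasia, 328 to 592 in transgenic and 141 to 171 in non-transgenic tissue. Rhbdl2, a membrane protease of the rhomboid family, was at 685 to 1659.6 in dysplasia and 77.1 to 257 in transgenic tissue, and at most at 24.1 in non-transgenic lung. The rises of Stk39 and Rhbdl2 were 4.09 and 4.19, and 30.6% and 32.6% of them were present in unaltered tissue. A2ml1, a protease inhibitor of the macroglobulin family, rose by 4.24, and Atp13a4, a membrane ATPase, by 4.22.

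An imprinted region on chromosome 12 held 4 of the genes that rose, 3 of them among the 20 largest rises. Dlk1, a membrane protein related to Notch ligands, was at 1555 to 5723 in dysplasia, 515 to 982 in transgenic and 25.3 to 62.7 in non-transgenic tissue. The non-coding RNA gene Meg3 had 6832, 6526, 7682, 6077 and 10579.5 against 226, 201, 284, 212 and 313, and all 9 of its tested probe sets rose. Rian rose by 4.55 (adjusted p = 3.48e-09) and Mirg by 3.15, both non-coding RNAs of the same region. In each of the 4 the transgenic arrays also lay above non-transgenic lung by the test, with 60.9% of the change of Dlk1 and 28.8% of that of Meg3 present there. Imprinted genes elsewhere mostly moved down, with Igf2, Peg3, Ndn, Grb10, Cdkn1c and Sgce falling by 1.27, 1.83, 1.53, 0.97, 0.96 and 0.96. The only other rise among 18 was that of Phlda2, by 2.22.

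**Figure D3:**
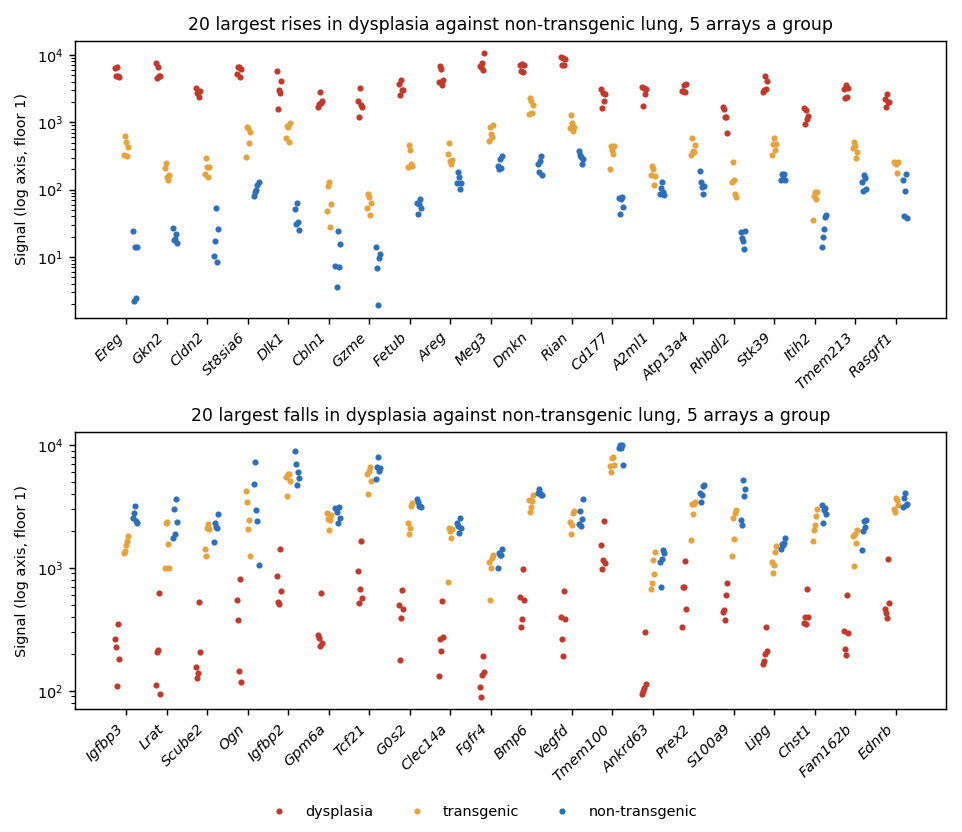
Signal (y axis, log scale, values under 1 drawn at 1) of the 20 largest rises (top) and 20 largest falls (bottom) in dysplasia against non-transgenic lung, with 1 dot per array and 5 arrays a group. In the rises transgenic unaltered tissue lies between the other groups or near non-transgenic lung, and in the falls it lies near non-transgenic lung, with Igfbp3 lower than the controls on all 5 arrays.

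Plasma proteins that the liver normally makes rose in 8 of 12 and fell in 2 (median 1.68), and 7 were also higher in unaltered transgenic tissue. Fetub, fetuin beta, had 3679.8, 2519.9, 4246, 3035 and 3024 in dysplasia and 64.1, 43.0, 60.8, 73.4 and 52.6 in non-transgenic lung, far apart (log2 change 4.93, adjusted p = 3.48e-09). Itih2, Afp, Rbp4 and Alb rose by 4.09, 3.58, 2.04 and 1.32. Serpina3n fell by 0.65 and the clotting factor gene F5 by 1.39, while Itih4 had its highest mean in unaltered transgenic tissue, 7605 against 3721 in dysplasia and 3014 in non-transgenic lung. The other 14 genes of this list had no tested probe set. Members dim in normal lung could pass the signal limit only through high arrays of transgenic mice, so the count and median lean towards rises.

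Secreted defence proteins rose in 7 of 10 and fell in none, and 5 of them were also higher in unaltered transgenic tissue. Lcn2, lipocalin 2, which binds bacterial iron carriers, had 17132, 12784, 16061, 12653 and 15593 in dysplasia, 9932, 9874, 10972, 10349 and 7876 in transgenic and 4586, 3613, 3788, 5832 and 5285 in non-transgenic tissue. Both groups of transgenic mice lay above the controls (log2 change 1.69, adjusted p = 6.04e-06). Pglyrp1, which binds bacterial cell walls, rose by 3.33, Orm1, orosomucoid, by 3.08 and Slpi by 1.21. The lysozyme gene Lyz2 was not called, at 19886 and 19829. Complement genes gave 7 rises and 4 falls among 15, with C1qb at 1.55 and C1qa at 1.06 on one side and C2 at -1.11 and C1s1 at -1.19 on the other. The lipoprotein gene Apoa1 rose from 4.40, 2.31, 2.53, 10.6 and 4.57 in non-transgenic 1 to 5 to 503, 133, 489, 386 and 304 in dysplasia, and 3 of 17 lipid carrier genes rose while 7 fell.

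Genes of chloride, bicarbonate, sodium and water transport rose in 9 of 16 and fell in 4. Slc26a4, pendrin, an anion exchanger, was at 2403 to 5122 in dysplasia and 144 to 514 in non-transgenic lung (log2 change 3.32, adjusted p = 8.94e-06). Slc12a2, which loads epithelia with chloride, rose by 1.73, the chloride channel gene Ano1 by 1.27 and the sodium pump gene Atp1b1 by 1.62. Cftr, the cystic fibrosis channel gene, fell by 1.77, from 239.7, 253, 248, 302 and 286 to 32.7, 41.4, 42.1, 64.3 and 34.2, and was also lower in unaltered transgenic tissue (adjusted p = 0.00961). The sodium channel subunit gene Scnn1g fell by 1.30 and the water channel gene Aqp1 by 1.62.

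The main surfactant protein genes were not called. Sftpc, the gene whose promoter drives the transgene, had 20371 ± 7132 in dysplasia and 21424 ± 4179 in non-transgenic lung (SD, n = 5; log2 change -0.11, 95% interval -0.57 to 0.35). The log2 changes of Sftpb, Sftpd and Sftpa1 were 0.29, 0.25 and 0.14. Ctsh, a protease that processes surfactant protein, rose by 1.76, the lamellar body transporter gene Abca3 by 0.60 and Cebpa, a factor of type 2 cells, from 3179 to 9113. Of 13 type 2 cell markers 6 rose and none fell, while of 14 type 1 cell markers 10 fell and 1 rose. The type 1 markers Ager, Pdpn and Gprc5a were not called (-0.05, -0.22 and 0.28), and the rise was that of Aqp5, by 0.99.

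Xenobiotic enzymes fell in 13 of 25 and rose in 3. Fmo1, a flavin monooxygenase, had 2283, 1338, 1364, 3514 and 2139.8 in dysplasia and 10091, 9724, 12114, 10872 and 10362 in non-transgenic lung (log2 change -2.38, adjusted p = 1.05e-05). Fmo2, Cyp2d22, Gstm2 and Cyp4b1 fell by 2.16, 2.02, 1.99 and 1.66. The fall of Cyp1a1, which oxidises aromatic hydrocarbons, by 2.12 rests on wide values, 3313, 104, 185, 196 and 213 in non-transgenic 1 to 5 against 24.4, 19.9, 29.6, 112 and 26.8 in dysplasia 1 to 5. Without non-transgenic 1 its log2 change was -1.33. The rises were those of Sult2b1, a sulfotransferase of cholesterol, by 3.08, Gsta4, which detoxifies lipid peroxides, by 2.80 and Cyp1b1 by 2.60. Among 8 metallothionein and zinc transport genes 5 rose and 2 fell, led by Mt2 and Mt1, which bind zinc and rose by 2.45 and 2.41.

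Nrf2 targets and antioxidant enzymes rose in 6 of 18 and fell in 3, beside 24.7% and 26% of all genes. Gpx2, a glutathione peroxidase of epithelia, had 648, 818, 762, 874 and 807 in dysplasia and 261, 116, 228, 173 and 139 in non-transgenic lung (log2 change 1.87, adjusted p = 6.47e-06), and the heme oxygenase gene Hmox1 rose by 1.59. The extracellular superoxide dismutase gene Sod3 fell by 1.66. Circadian clock genes fell in 5 of 15 and rose in 1, and heat shock genes rose in 3 of 12 with no fall.

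Enzymes of prostaglandin metabolism moved in opposite directions. Ptgr1, a reductase that inactivates leukotriene B and prostaglandins, rose by 3.31 and Ptgs2, the inducible cyclooxygenase, by 1.82, from 534, 475, 241, 294 and 236 in non-transgenic lung to 1512, 2119, 1100.5, 1004 and 1126 in dysplasia. Hpgd, which breaks down prostaglandin E, fell from 18163 ± 2332 to 4315 ± 1716 (SD, n = 5; adjusted p = 1.21e-05), and the prostacyclin synthase gene Ptgis fell by 1.74. In all 8 of 16 rose and 3 fell. Retinoid genes fell in 6 of 10 and rose in 2. Lrat, which stores retinol as ester, had 112, 208, 214, 626 and 94.9 in dysplasia and 1756, 3034, 1881, 3622 and 2378 in non-transgenic lung, where dysplasia 4 was the highest of its group (log2 change -3.29, adjusted p = 3.73e-05). Adh1 and Aldh1a1, which oxidise retinol and retinal, fell by 1.19 and 1.21, and the carrier gene Rbp4 was one of the rises.

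Proliferation genes rose together. All 19 measured mitosis genes rose, with a median log2 change of 1.30, and none was called between transgenic and non-transgenic tissue. Cdc20, an activator of the anaphase-promoting complex, had 2471, 3514, 3377, 2768 and 3980.5 in dysplasia and 631, 561, 537, 935 and 880.1 in non-transgenic lung, with 704, 1278, 1065, 1039 and 1162 in unaltered tissue (log2 change 2.12, adjusted p = 4.24e-06). Cdk1, Kif23, Birc5, Top2a and Mki67 rose by 1.71, 1.70, 1.44, 1.28 and 1.30. Of 21 DNA replication genes 16 rose and none fell, from Tk1 (1.54) and Rrm2 (1.08) to Pcna (0.44), while Mcm3 and Mcm4 were not called (-0.01 and 0.09). Without dysplasia 4 the counts were 18 of 19 and 16 of 21.

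Of 26 respiratory chain and ATP synthase genes 14 rose and none fell (median 0.27), with the largest rise in Uqcrfs1 (0.78). Of 25 proteasome subunit genes 10 rose and none fell (median 0.20), and of 24 ER chaperone and secretory genes 13 rose and none fell (median 0.41), led by Creb3l1 (1.66) and the disulfide isomerase gene Pdia6 (0.86). Cytosolic ribosomal protein genes rose in 3 of 16, a smaller share than the 24.7% of all genes. Glycolysis genes rose in 8 of 15 and fell in 3, with Hk2 and Ldha at 1.33 and 1.24 and the glucose carrier gene Slc2a3 at -1.72. Of the serine synthesis genes Psat1 rose by 2.20 and Phgdh by 0.71, and Psph was not called (0.18). Phgdh lay as far above non-transgenic lung in unaltered transgenic tissue (0.71). Atf5 fell by 1.42 in the same list of ATF4 targets, of which 6 of 19 rose and 5 fell. Of 23 genes of fatty acid and sterol synthesis 6 rose and 1 fell (median 0.06), beside 24.7% and 26% of all genes. The rises included Me1 (2.01), Fasn (0.85) and Acly (0.83), and Acacb, an acetyl-CoA carboxylase gene, fell by 0.69. Elovl5, Elovl6 and Scd2 and the cholesterol synthesis genes Sqle, Hmgcs1, Idi1, Lss and Fdps were not called.

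Lysosome genes rose in 16 of 25 and fell in 2, and 6 were higher in unaltered transgenic tissue than in non-transgenic lung. The list median was 0.35 on the log2 scale in dysplasia and 0.35 in unaltered transgenic tissue, each against the same non-transgenic arrays. Cd68, a lysosomal protein of macrophages, had means of 1672, 1898 and 937 in dysplasia, transgenic and non-transgenic tissue. The proton pump gene Atp6v0d2 had 2022, 3206 and 1279. Npc2, a cholesterol carrier that surfactant-producing cells also express, was at 28012, 25845 and 19482. The median summed signal of macrophage markers was also highest in unaltered transgenic tissue, and its part in these values was not tested.

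**Figure D4:**
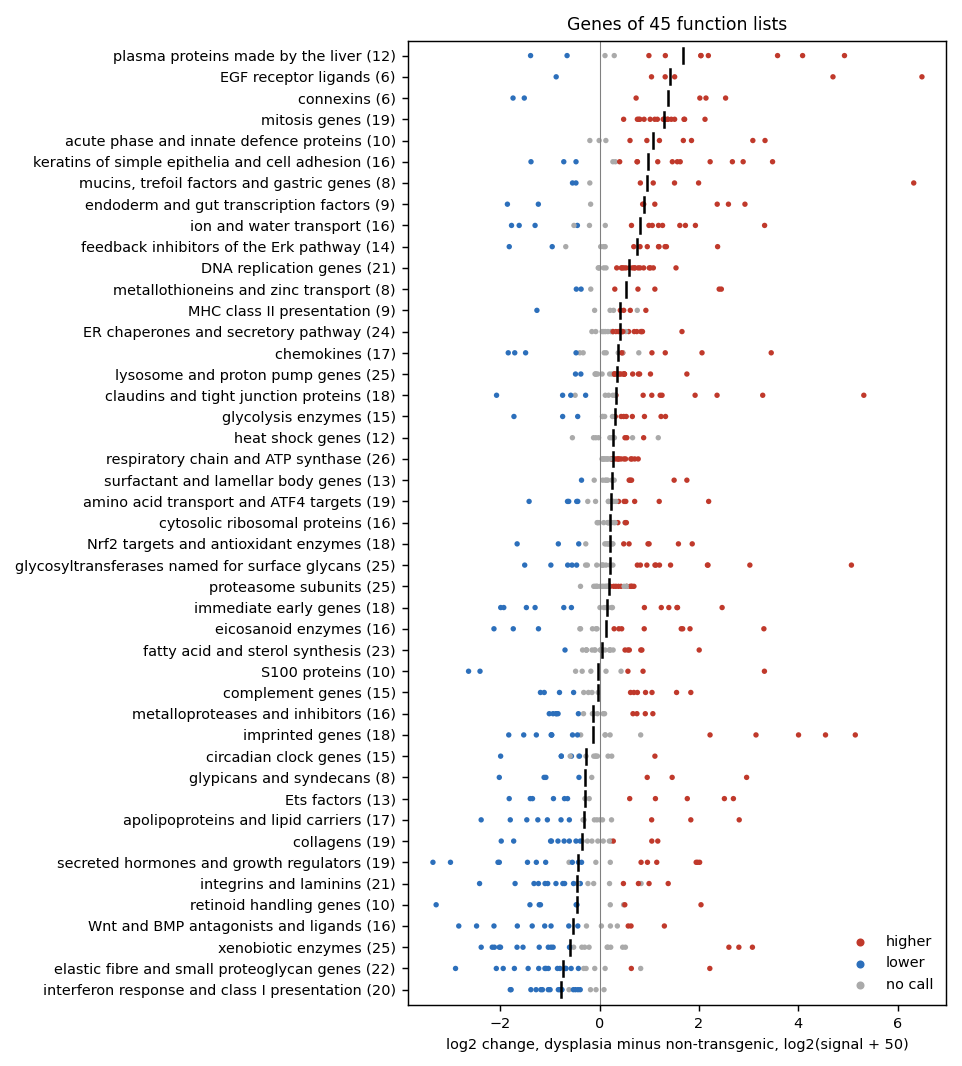
Log2 change of the signal in dysplasia minus non-transgenic lung (x axis, log2(signal + 50)) for the measured genes of 45 function lists, with the number of genes in parentheses; each dot is 1 gene, red risen, blue fallen and grey not called, and the black bar is the list median. The 19 mitosis genes all lie above 0 with a median of 1.30, and the 20 interferon and class I genes have the lowest median, -0.78.

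Interferon response and class I presentation genes fell in 16 of 20 and rose in none, with a median of -0.78. Rsad2, the antiviral protein viperin, had 398, 320.4, 209.9, 443 and 426 in dysplasia and 1239, 1228, 1231, 1587 and 1346 in non-transgenic lung (log2 change -1.78, adjusted p = 9.51e-06). The guanylate-binding protein genes Gbp3 and Gbp2 fell by 1.80 and 1.28, Ifit1, Ifit2 and Ifit3 by 1.15, 1.18 and 0.83, and Irf7 by 1.03. The peptide transporter genes Tap1 and Tap2 fell by 0.43 and 0.76, and B2m, the light chain of class I, by 0.39. The heavy chains H2-K1 and H2-D1 were not called (0.09 and -0.07). Without dysplasia 4 the count was 15 of 20. MHC class II genes went the other way in 4 of 9, with H2-Ab1 at 0.62, and 1 fell.

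Chemokine genes gave 6 rises and 4 falls among 17. Cxcl17, a mucosal chemokine, was at 5205 to 8245 in dysplasia, 1342 to 1923 in transgenic and 476 to 764 in non-transgenic tissue (log2 change 3.45, adjusted p = 6.55e-08). Ccl17, Cxcl9 and Cxcl1 rose by 2.06, 1.32 and 1.05, and Cxcl12, Ccl5 and Cxcl14 fell by 1.84, 1.71 and 1.49. The alarmin genes S100a8 and S100a9 of neutrophils fell by 2.41 and 2.64, whereas S100a14 of epithelia rose by 3.32. Cd177, known as a surface antigen of neutrophils, rose by 4.40, and the neutrophil receptor gene Csf3r fell by 1.54. Of 5 neutrophil markers 1 rose and 3 fell, with a summed signal of 3324 to 4928 in dysplasia and 6144 to 13643 in non-transgenic lung.

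Igfbp3, a carrier of insulin-like growth factors, had 263, 227, 109.8, 348 and 180.0 in dysplasia and 2556, 2817, 3199.9, 2391 and 2323 in non-transgenic lung. Transgenic tissue, at 1332, 1366, 1547, 1657 and 1820.0, was in between, and none of the groups overlapped (log2 change -3.35, adjusted p = 6.86e-07; 22.8% present in unaltered tissue, adjusted p = 0.0109). Scube2, a secreted protein that releases hedgehog ligands, had 157, 128, 139.6, 531 and 208 against 1611, 2306, 2134, 2118 and 2719, with dysplasia 4 the highest of its group. The log2 changes of Bmp6, Fgfr4, Tmem100, Prex2 and Gpm6a, which also fell, were -2.83, -2.85, -2.69, -2.64 and -2.97. Among 19 genes of secreted hormones and growth regulators 10 fell and 6 rose, where Igfbp2 fell from a mean of 6425 to 797 and Igfbp6 from 3385 to 812, and the activin subunit gene Inhbb and its inhibitor Fst rose by 2.01 and 1.94. Wnt and BMP genes fell in 9 of 16 and rose in 3, with Wnt2 and Smad6 at -2.47 and -2.12 and Bmp4 at 1.30.

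Matrix genes fell in larger numbers than they rose, with clear exceptions. Elastic fibre and small proteoglycan genes fell in 15 of 22 and rose in 2, where Ogn, Mfap4, Ltbp1 and Prelp fell by 2.90, 2.08, 1.94 and 1.71. Eln, elastin itself, rose, from 662, 552, 572, 882 and 792 in non-transgenic 1 to 5 to 2508, 3513, 4250.1, 2626 and 4313 in dysplasia 1 to 5 (log2 change 2.22, adjusted p = 3.86e-06). Collagens fell in 9 of 19 and rose in 3. Col12a1 and Col13a1 fell by 1.73 and 1.98, Col15a1 and Col18a1 rose by 1.17 and 1.05, and the fibrillar collagens Col1a1, Col1a2 and Col3a1 were not called. Integrins and laminins fell in 11 of 21, led by Itga8 (-2.41) of mesenchyme, and rose in 4, among them the epithelial laminin chain gene Lamb3 (from 1600.4 to 3246).

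Markers of most cell types other than type 2, club and ciliated cells, macrophages and T cells were lower. All 25 endothelial markers fell, with a median of -1.82, and their summed signal was 36048 to 54624 in dysplasia and 128149 to 154859.5 in non-transgenic lung. Tek, a receptor of angiopoietins, fell by 2.34, Pecam1 by 2.01 and the endothelin receptor gene Ednrb by 2.56. All 8 markers of smooth muscle and pericytes and all 4 of mesothelium fell. Fibroblast markers fell in 9 of 16, with Tcf21 at -2.95, and the only rise was Eln. NK cell markers fell in 4 of 4, B cell markers in 5 of 6, red blood cell and platelet markers in 5 of 6 and heart muscle markers in 6 of 7. T cell markers were lower in 1 of 6, and of the club cell markers 1 of 8 fell and none rose. Of 5 ciliated cell markers 2 rose and 1 fell, and the rise of Pifo was 2.82. The summed signal of the mesothelial markers was 245 to 626 in dysplasia and 2019 to 2694 in non-transgenic lung, and the part of changed cell content in the falls above was not tested.

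**Figure D5:**
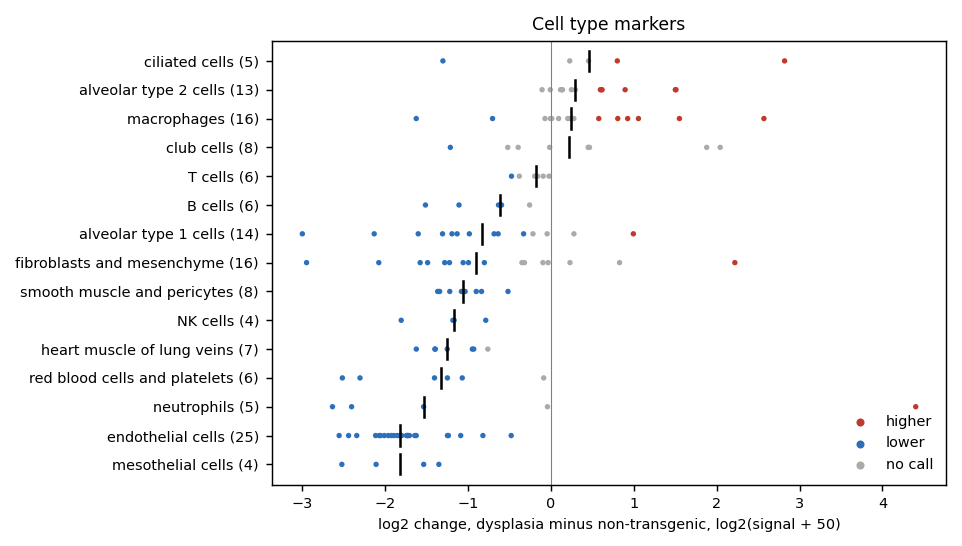
Log2 change of the signal in dysplasia minus non-transgenic lung (x axis, log2(signal + 50)) for the measured genes of 15 cell type marker lists, drawn with 1 dot per gene, red risen, blue fallen and grey not called, and a black bar at the list median. The 25 endothelial markers all lie below 0 with a median of -1.82, and type 2 cell markers have a median of 0.29.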

How the data were processed

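RNA of laser-microdissected lung tissue was hybridised to Affymetrix Mouse Genome 430 2.0 arrays, 1 array per sample. The deposited values are the intensity (signal) of each probe set on a linear scale, which the authors made in GCOS with a target of 500 for every array. Mean signals after trimming 2% at each end were checked and equal this target. The 64 controls were removed, and of the other 45037 probe sets 34945 carry 1 gene symbol in the platform annotation, 932 several and 9160 none, where 34741 symbols matched the RefSeq gene table. The transgene itself is not reported here.

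Groups came from the sample titles. The array labelled transgenic 2 was used as such, although other fields of it name a tumor. An offset of 50 was added to each signal before log2, and probe sets that averaged more than 100 over the 15 arrays were fitted with limma 3.58.1 (lmFit and eBayes, unpaired) in R 4.3.3, on the 10 arrays of each comparison, with Benjamini-Hochberg adjustment over all probe sets tested. The procedure was tested on simulated data. The p-values measure the spread between these arrays. Array numbers were taken to pair dysplasia with unaltered tissue. Deviations of same-numbered arrays of these groups from their group means correlated in all 5 pairs (mean 0.612, lowest 0.219). Same-numbered dysplasia and non-transgenic arrays, which are of different mice, also correlated on average (mean 0.405), so the correlation cannot show a shared mouse. Among the pairs with unaltered tissue, pair 4 was lowest. There dysplasia 4 had an Xist signal of 9674 and transgenic 4 one of 85.0, so the shared mouse of that pair is in doubt. The permutation method of the study was not run, and an unmoderated linear model stands in as an alternative.

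The members, the gene lists and the motifs were chosen with earlier results of these data known. Genes named are the 20 largest rises and 20 largest falls whose groups do not overlap, those close to transgenic tissue, at most 4 genes a list, taken by smallest p, and genes that the study names. Other list members were named after their values were seen. For a gene with several probe sets the brightest was taken for the lists, and the one with the largest change for the 20 largest rises and falls. Promoters came from RefSeq (GRCm38.p6) by symbol, using the first listed start.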

Additional observations from a re-analysis of the deposited data

Results flagged for a closer look

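In groups of 5 arrays, an array was singled out when its gap to the nearest other array exceeded the critical value of Dixon's test, which chance alone passes in about 1 of 20 groups. Of 478 pairs of a group and a probe set of a gene with values in the text, 30 were singled out, and no pattern in them was tested.

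Dysplasia 4 was far above the other dysplasia arrays in genes that fell, with a signal of 1663 for the complement gene C1s1 and 423 for Col13a1. It had 1178 for the endothelin receptor gene Ednrb, 628 for Gpm6a and 112 for Cyp1a1. Dysplasia 1 was far above its group in several bright probe sets, among them those of surfactant protein genes. Its mean signal over all probe sets, 775, was also the highest of the dysplasia arrays, against 706 to 734 for the others. The trimmed means were equal, and the part of this in the values of dysplasia 1 was not tested. Its signals were 32159 for Sftpb, 32942 for Sftpc, 34801 for Sftpd and 41763 for Npc2. It also had 28721 for Lyz2, 32120 for the brighter probe set of Scd1, 11971 for the chloride channel gene Ano1 and 19466 for H2-D1, and it was lowest for Tk1 at 280.0. Dysplasia 2 was highest for Foxa2 at 6344 and lowest for Slpi at 2188, and dysplasia 5 was lowest for Fcgr2b at 521.

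Among the controls, non-transgenic 5 was lowest for Dusp5 at 30.0, Krt7 at 4764, Pecam1 at 1559, Tmem100 at 6847 and Pisd-ps3 at 44.6, and highest for Col18a1 at 1089. Non-transgenic 1 was highest for Cyp1a1 at 3313 and Fst at 259 and lowest for Alb at 48.1. Non-transgenic 2 was highest for Cdh2 at 344, non-transgenic 3 for Uqcrfs1 at 1999 and non-transgenic 4 for Apoa1 at 10.6 and lowest for Sod3 at 3065.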

How the results depend on the processing

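The counts of probe sets higher or lower in dysplasia stayed within 1.5 times the values given under every alternative, leaving out single arrays included (3944 to 4456 higher and 4418 to 5076 lower). At an adjusted p under 0.001 and a 2-fold ratio they were 1061 and 1633, and 961 to 1054 and 1440.0 to 1655 without single arrays. Of 239 probe sets of the genes with values in the text 225 were called, 217 of these under every alternative, and none reversed. The 8 genes that lost the call somewhere were Tap1, Npc2, Cdkn1c, Hbegf, Cyp1a1, Tff1, Muc20 and Pisd-ps3. Of 60 list medians 22 moved by over 1 SD of the arrays under some alternative. The median changed sign somewhere for the complement genes (-0.03, and 0.33 with a signal limit of 200) and the S100 proteins (-0.02, and 0.03 without dysplasia 2), and for no other list. Without an offset the log2 changes of dim genes grew by over 1.5 times, as in Etv4 (5.73), Hnf4a (4.65) and Apoa1 (6.30).

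The set close to transgenic tissue was the least firm result. Leaving out single arrays gave 3 to 13 higher and 0 to 3 lower probe sets. The unmoderated linear model gave 5 and 0. The lower count was also 0 with a signal limit of 200 and with a fit of all 3 groups, 2 with Xist as a covariate and 3 with the actin ratio as a covariate. With the difference in place of its interval, an alternative chosen after seeing the data, the counts were 53 and 16. With the array number as a replicate block the close set held 12 and 2, and dysplasia against non-transgenic lung gave 5050.0 and 5691. For that comparison the arrays share only a number, with a mean correlation of 0.405 and a lowest of -0.00366 over 5 pairs. The cause of these moves was not tested. Sex and age differ between the groups, and 5 arrays a group and signals near background limit what small or dim changes can be seen.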
